A study of Mus musculus with 8 samples.

Results

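The genes described here are 10 regulators and matrix components of cartilage, measured by RNA-seq in mouse mesenchymal stem cells (MSCs, stromal cells that can give rise to bone, fat and cartilage cells). They are the transcription factors Sox9, Sox5, Sox6 and Runx3 and the extracellular proteins Acan, Comp, Hapln1, Matn2, Chad and Prg4, and they were found by symbol among the 53465 gene identifiers of the count table. All 10 had counts, and 9 of them passed the filter on low counts that left 14369 genes to be tested, the exception being Chad. Hypoxia-cultured cells (2% O2, 4 samples) were compared with normoxia-cultured cells (21% O2, 4 samples), both in the same control medium, to ask how oxygen affects these genes.

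Per the methods of the study, the cells, which the labels call bone marrow MSCs, were released with collagenase from crushed hind limb bones. They came from wild-type male C57BL/6N mice of 3 to 5 months, carried no transgene, and belonged to a CD45-/TER-119-/CD140a+/Sca-1+ sorted population that was divided between the oxygen conditions for a week. The hypoxia samples were thus kept at the oxygen level of the earlier culture and the normoxia samples were shifted away from it. The labels place the isolation of purified MSCs on day 12, and the methods of the study place the sort on the same day. A figure legend of the study puts the sort earlier, and this difference was not reconciled here. In the methods and the legend the sort came before the oxygen treatment. These were sorted cells expanded in culture without a cartilage-inducing medium. All 8 MSC markers passed the filter, with a summed level of 2673 to 3125 CPM (library-scaled counts) in hypoxia and 3090 to 3576 in normoxia. Of these, 3 rose and 1 fell in normoxia (limma-trend, adjusted p under 0.05), beside 34.6% of all tested genes called. With the replicate number as a block, 4 rose and 4 fell, beside 46%. Itgb1 held the largest part of each sum. Log2 changes were 0.72 for Cd44, 0.585 for Nt5e, 0.44 for Itgb1 and 0.24 for Pdgfra. They were -0.14 for Ly6a, -0.15 for Pdgfrb, -0.27 for Eng and -0.41 for Thy1. Blood cell markers were present too, as 11 of 14 passed the filter, with summed levels of 619.3 to 1307 CPM in hypoxia and 682.8 to 1310 in normoxia, while Cd3e and Cd8a of T cells had no counts. Total counts lay between 12898291 and 13433824 in 7 samples, and hypoxia replicate 1 had 25132141. In such bulk samples, fewer cells of a type and less RNA per cell cannot be told apart.

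Cartilage is built by chondrocytes, whose identity depends on SOX9. SOX5 and SOX6 act beside it as partners that lack an activation domain of their own, and together they drive genes for type II collagen and aggrecan. Aggrecan, a proteoglycan carrying chondroitin sulfate chains, is held on hyaluronan by the link protein HAPLN1, whereas COMP, matrilins and chondroadherin tie the collagen network together. PRG4, or lubricin, instead coats the joint surface.

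The DNA-binding HMG box is the part that the SOX members share, and its coding sequence is shown because the 3 genes are set against each other in the results that follow. The stretch of 79 codons is that in which the proteins of Sox9 and Sox5 were most alike. For Sox6 it is the stretch that best matched that of Sox9. The bases were taken from the GENCODE M21 transcripts Sox9-201, Sox5-201 and Sox6-212, on the coding strand. Capitals mark the 125 of 237 bases identical in all 3.
Sox9: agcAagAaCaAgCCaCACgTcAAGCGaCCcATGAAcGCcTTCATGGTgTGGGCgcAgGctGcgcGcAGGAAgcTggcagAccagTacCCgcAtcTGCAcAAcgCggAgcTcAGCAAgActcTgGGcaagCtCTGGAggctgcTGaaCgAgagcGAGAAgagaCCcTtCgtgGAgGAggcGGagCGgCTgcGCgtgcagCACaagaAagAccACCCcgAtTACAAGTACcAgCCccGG
Sox5: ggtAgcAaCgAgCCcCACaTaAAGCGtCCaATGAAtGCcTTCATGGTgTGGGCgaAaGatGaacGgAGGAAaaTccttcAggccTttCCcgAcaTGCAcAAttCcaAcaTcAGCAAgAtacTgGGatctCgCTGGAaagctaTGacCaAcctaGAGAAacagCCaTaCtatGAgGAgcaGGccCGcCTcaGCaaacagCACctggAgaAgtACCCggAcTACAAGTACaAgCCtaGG
Sox6: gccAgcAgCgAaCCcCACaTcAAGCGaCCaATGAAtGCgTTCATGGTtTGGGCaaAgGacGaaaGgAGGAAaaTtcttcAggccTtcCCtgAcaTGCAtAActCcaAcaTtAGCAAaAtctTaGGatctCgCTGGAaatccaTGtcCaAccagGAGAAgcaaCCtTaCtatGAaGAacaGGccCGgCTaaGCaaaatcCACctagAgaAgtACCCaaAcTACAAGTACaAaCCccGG
Sox5 and Sox6 shared 81.9% of these bases and 91.1% of the encoded residues. Sox9 shared 62.0% of the bases and 51.9% of the residues with Sox5, and 57.4% and 48.1% with Sox6. The longest run of identical bases was 18 between Sox9 and Sox5, 15 between Sox5 and Sox6 and 10 between Sox9 and Sox6.

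Of the 9 tested members, Prg4 and Hapln1 rose in normoxia and Sox9 fell, whereas Sox5, Sox6, Acan, Comp, Matn2 and Runx3 did not pass the test (limma-trend, adjusted p under 0.05 over all tested genes). This is 3 of 9 members beside 34.6% of all tested genes, with 2 higher beside 18% and 1 lower beside 16.5%, so the share called among the members was near that of all genes. With the replicate number as a block, Comp also fell and 4 of 9 members were called, beside 46% of all genes. When GC content and length were also corrected for, Prg4 and Acan rose and Sox9 and Comp fell, beside 43.2%. Hypoxia and normoxia values were fully separated for Sox9, Hapln1 and Prg4, beside 32.6% of all tested genes. The median log2 change over all tested genes was 0.0049, and 52.15% of the calls were higher in normoxia, or 69.6% when samples were scaled by library size only.

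**Figure D1:**
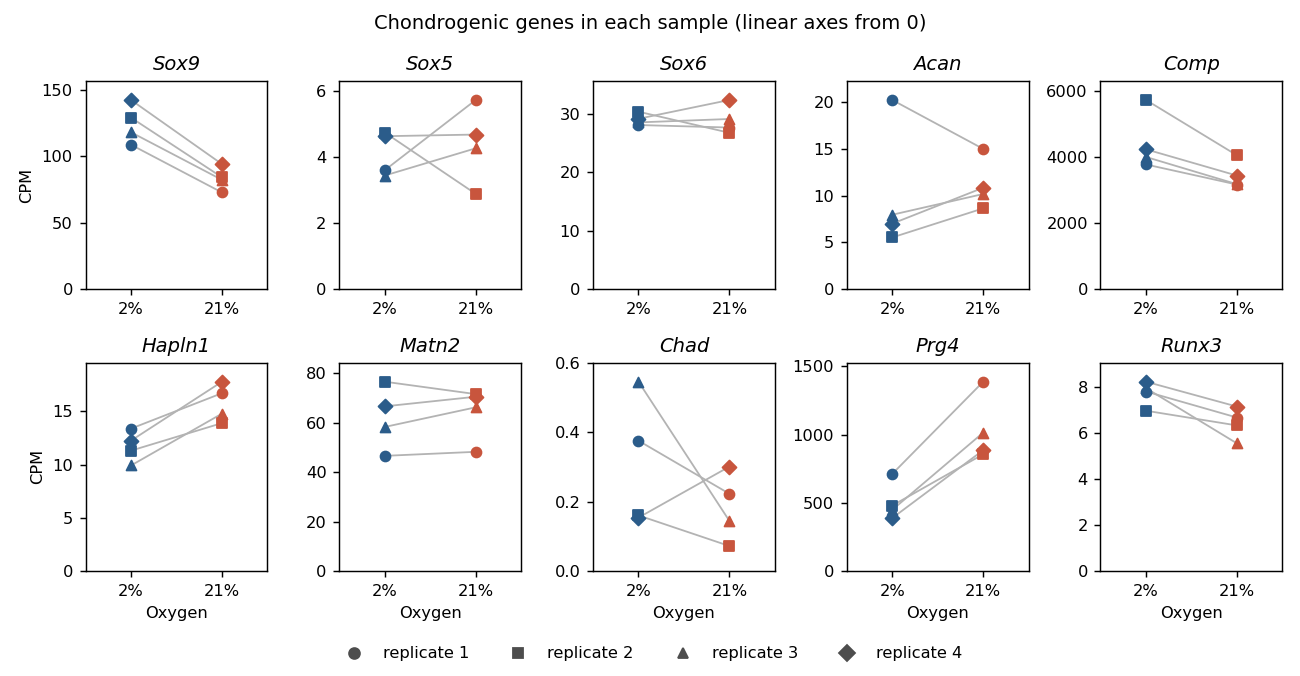
Levels of the 10 genes in CPM (vertical axes, linear from 0) at 2% and 21% oxygen, with a point for each sample and lines joining samples with the same replicate number. The 4 normoxia values lie below all hypoxia values for Sox9 and above them for Hapln1 and Prg4.

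Sox9 (ENSMUSG00000000567, chr11:112782224-112787760, plus strand, GRCm38) had 108.8, 129.2, 118.2 and 142.5 CPM in hypoxia replicates 1 to 4. In normoxia it had 72.85, 84.27, 82.35 and 94.2 CPM. Every normoxia sample was thus lower than every hypoxia sample, and within each group replicate 1 was lowest and replicate 4 highest. The mean log2 CPM was 6.96 ± 0.17 (SD, n = 4) in hypoxia and 6.38 ± 0.15 in normoxia, a log2 change of -0.58 ± 0.093 (SE) with an adjusted p of 0.000706 in limma-trend. The difference lay between -0.61 and -0.52 in the 4 same-numbered pairs, and Sox9 remained lower and past the threshold in all 20 alternatives run, at -0.65 to -0.49.

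Sox5 (ENSMUSG00000041540, chr6:143828425-144781977, minus strand) was the lowest of the SOX members. Its levels were 3.595, 4.734, 3.435 and 4.623 CPM in hypoxia and 5.718, 2.881, 4.258 and 4.673 CPM in normoxia. The groups overlapped, with the highest and the lowest value both in normoxia. Normoxia minus hypoxia was 0.07 ± 0.20 on the log2 scale (SE, limma-trend, adjusted p = 0.827). The 95% interval of -0.43 to 0.56 leaves room for a rise as large as that of Hapln1 and for a fall.

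Sox6 (ENSMUSG00000051910, chr7:115470872-116038796, minus strand) had 28.05, 30.33, 28.5 and 29.12 CPM in hypoxia and 27.62, 26.72, 29.08 and 32.33 CPM in normoxia. The groups overlapped, and both the lowest and the highest value were again in normoxia. Its log2 change was -0.006 ± 0.077 (limma-trend, adjusted p = 0.962), with a 95% interval of -0.19 to 0.18, which does not reach the fitted change of Sox9. Set against Sox9 within each sample, the log2 ratio of Sox6 to Sox9 was -2.09 ± 0.14 (SD, n = 4) in hypoxia and -1.52 ± 0.11 in normoxia. The ratio was higher in normoxia in 4 of 4 pairs, by 0.43 to 0.75, with a mean difference of 0.57 (two-sided exact permutation test, p = 0.0286, the smallest that 70 assignments allow, and 0.0856 adjusted over the 3 ratios compared). For Sox5 to Sox9 the difference was 0.64, higher in 3 of 4 pairs (exact permutation p = 0.0571, adjusted 0.0856). Within pairs, the sign-flip permutation test of the Sox6 ratio gave p = 0.125, the smallest that 4 pairs allow. Both ratio differences hold the change of Sox9 given above, so they are not results separate from it.

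The genes whose log2 CPM followed Sox9 most closely over the 8 samples were Efcab1, Cand2, Pcolce, Hlx and Retsat, with Pearson correlations of 0.9917 to 0.9944. The samples share oxygen groups and replicate numbers, so these values are a description only. Pcolce encodes an enhancer of procollagen processing, and its log2 change was -0.27, beside -1.24 for Efcab1.

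Runx3 (ENSMUSG00000070691, chr4:135120652-135177990, plus strand) encodes a RUNT-domain factor that acts with RUNX2 in chondrocyte maturation and is also used by T cells and other blood cells. It had 7.816, 6.98, 7.963 and 8.244 CPM in hypoxia and 6.683, 6.339, 5.557 and 7.16 CPM in normoxia. Hypoxia replicate 2 lay below normoxia replicate 4, so the groups overlapped, though all 4 pairs were lower in normoxia. The log2 change was -0.26 ± 0.12 (limma-trend, adjusted p = 0.113), and it did not pass the threshold in any of the 20 alternatives. Its relatives Runx1, at -0.60 (adjusted p = 0.00261 in limma-trend), and Runx2, the regulator of bone and hypertrophic cartilage, at -0.35 (adjusted p = 0.00185), fell, as did their shared partner Cbfb at -0.26 (adjusted p = 0.0031), which was -0.45 with the GC and length correction. Of the 11 tested blood cell markers, 1 rose and 2 fell, beside 34.6% of all tested genes called. With the replicate block, 1 rose and 8 fell, beside 46%. The part of blood cells in the Runx values was not tested.

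Among the other 22 chondrogenic regulators listed, 18 were tested and 2 rose and 4 fell, beside 34.6% of all tested genes called. Their median log2 change was -0.11. With the replicate block, 3 rose and 8 fell, beside 46% of all genes. Arid5a, a cofactor of SOX9, rose by 0.38 ± 0.11 (limma-trend, adjusted p = 0.0163). Mef2c, a driver of chondrocyte hypertrophy, fell by 0.61 ± 0.16 (adjusted p = 0.0117), and Nfatc2 fell by 0.94 ± 0.31 (adjusted p = 0.0334, or 0.0587 with the GC and length correction). The rise of Sp3, at 0.23 (adjusted p = 0.0236), was -0.0069 in the blocked fit corrected for GC content and length.

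Acan and Hapln1 encode the proteoglycan and the link protein of one aggregate. Their promoters are shown from RefSeq (GRCm38.p6, plus strand, 250 bases before to 50 after the start) for comparison of the pair, and the table matched 6 of the 10 members. Capitals mark matches, on either strand, to the hypoxia response element core (ACGTG or GCGTG), to RUNX (TGTGGT or TGCGGT) or to SOX (AACAAT or ACAATG) letters.
Acan, chr7:79052976-79053275: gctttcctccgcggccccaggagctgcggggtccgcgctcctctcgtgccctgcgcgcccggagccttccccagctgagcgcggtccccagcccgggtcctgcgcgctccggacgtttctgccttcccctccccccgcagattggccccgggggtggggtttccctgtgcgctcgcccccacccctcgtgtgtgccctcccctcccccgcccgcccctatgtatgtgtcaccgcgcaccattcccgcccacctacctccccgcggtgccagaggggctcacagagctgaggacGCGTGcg
Hapln1, chr13:89540386-89540685: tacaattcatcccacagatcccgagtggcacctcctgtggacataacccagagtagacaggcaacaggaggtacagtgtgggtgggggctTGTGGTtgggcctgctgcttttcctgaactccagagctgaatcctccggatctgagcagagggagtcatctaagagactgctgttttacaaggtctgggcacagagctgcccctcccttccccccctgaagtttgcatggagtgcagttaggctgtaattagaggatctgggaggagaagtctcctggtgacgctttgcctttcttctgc
The Acan window held 1 match, the core GCGTG at base 294, and 74.0% G and C. The Hapln1 window held 1 match, TGTGGT at base 91, and 54.3% G and C. Of 32851 such windows, 43.8% held the hypoxia core, 22.4% the RUNX and 18.7% the SOX letters, so each match is common and describes letters only. These RefSeq starts differ from the gene starts of the GENCODE annotation.

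Hapln1 (ENSMUSG00000021613, chr13:89539796-89611652, plus strand) had 13.38, 11.31, 9.915 and 12.25 CPM in hypoxia and 16.71, 13.9, 14.79 and 17.79 CPM in normoxia. All normoxia samples lay above all hypoxia samples, though the gap between 13.38 and 13.9 CPM was small. The log2 change was 0.43 ± 0.12 (SE, limma-trend, adjusted p = 0.0142), higher in 4 of 4 pairs by 0.29 to 0.57. With the GC and length correction it was 0.19 (adjusted p = 0.209, or 0.0882 with the block as well), and without normoxia replicate 4 the adjusted p was 0.0551.

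Acan (ENSMUSG00000030607, chr7:79053483-79115099, plus strand) varied most among the samples. It had 20.23, 5.536, 7.963 and 7.011 CPM in hypoxia and 15, 8.643, 10.18 and 10.85 CPM in normoxia. Replicate 1 was highest in both groups, and hypoxia replicate 1 exceeded every normoxia sample, while the other 3 hypoxia samples lay below all of them. The log2 change was 0.29 ± 0.32 (limma-trend, adjusted p = 0.521), with pair differences of -0.43, 0.62, 0.35 and 0.62 for replicates 1 to 4. It passed the test without hypoxia replicate 1, at 0.68 (adjusted p = 0.0109), and in the blocked fit corrected for GC content and length, at 0.40 (adjusted p = 0.0127). The ratio of Hapln1 to Acan differed by 0.14 on the log2 scale (exact permutation p = 0.80), and by -0.19 without hypoxia replicate 1.

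Comp (ENSMUSG00000031849, chr8:70373558-70382066, plus strand), the cartilage oligomeric matrix protein of the thrombospondin family, which is also made by tendon, was the most abundant member. It had 3785, 5742, 4013 and 4245 CPM in hypoxia and 3176, 4063, 3186 and 3448 CPM in normoxia. Replicate 2 was highest in both groups, and normoxia replicate 2 lay above hypoxia replicates 1 and 3, so the groups overlapped although all 4 pairs were lower in normoxia, by -0.50 to -0.25. The log2 change was -0.35 ± 0.13 (limma-trend, adjusted p = 0.0603). It passed the test with the replicate block (adjusted p = 3.52e-05), in edgeR (0.0455), DESeq2 (0.0148) and limma-voom (0.0467), and its size was -0.14 with the GC and length correction (adjusted p = 0.454, or 0.0283 with the block).

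Matn2 (ENSMUSG00000022324, chr15:34306677-34436273, plus strand), an adaptor protein of filamentous matrix networks, had 46.56, 76.54, 58.24 and 66.57 CPM in hypoxia and 48.19, 71.52, 66.18 and 70.46 CPM in normoxia. Replicate 1 was lowest and replicate 2 highest in both groups, which overlapped over nearly their whole range. Normoxia minus hypoxia was 0.05 ± 0.15 on the log2 scale (limma-trend, adjusted p = 0.812), with a 95% interval of -0.31 to 0.42. Chad (ENSMUSG00000039084, chr11:94565047-94569127, plus strand), the collagen-binding chondroadherin, had 9, 2, 7 and 2 counts in hypoxia and 3, 1, 2 and 4 in normoxia. At this depth, where 3 counts stand for 0.125 to 0.241 CPM, no difference was detectable (exact permutation p = 0.314), and no fold is given. Chad lies within the gene Acsf2 on the opposite strand without shared exon bases.

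Prg4 (ENSMUSG00000006014, chr1:150449412-150466165, minus strand), the lubricin of the joint surface, changed most among the members. It had 711, 479, 447.7 and 387.6 CPM in hypoxia and 1387, 855.7, 1014 and 885.4 CPM in normoxia. Every normoxia sample exceeded every hypoxia sample, and replicate 1 was highest in both groups. The mean log2 CPM was 8.95 ± 0.37 (SD, n = 4) in hypoxia and 9.99 ± 0.32 in normoxia, a log2 change of 1.04 ± 0.18 (SE), or 2.06-fold, with an adjusted p of 0.00105 in limma-trend. The pairs differed by 0.84 to 1.19, and Prg4 remained higher and past the threshold in all 20 alternatives, at 0.88 to 1.22. It shares 204 exon bases with Tpr on the opposite strand, and the strand setting of the counting was not stated. Tpr had 2505, 1290, 1003 and 930 counts in hypoxia and 1965, 2076, 1899 and 1905 in normoxia, beside 5031 to 18672 for Prg4. The Tpr count was highest in hypoxia replicate 1, the deepest sample, and otherwise higher in normoxia. The part of Tpr reads in the Prg4 values was not tested. Of the 4 tested genes on the list of joint surface markers, Prg4 was the 1 called, beside 34.6% of all tested genes. With the replicate block, 1 rose and 1 fell, beside 46%. Cilp was at -0.70 (limma-trend, adjusted p = 0.0933, or 5.6e-08 with the block), Thbs4 at -0.11 and Cilp2 at 0.19.

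**Figure D2:**
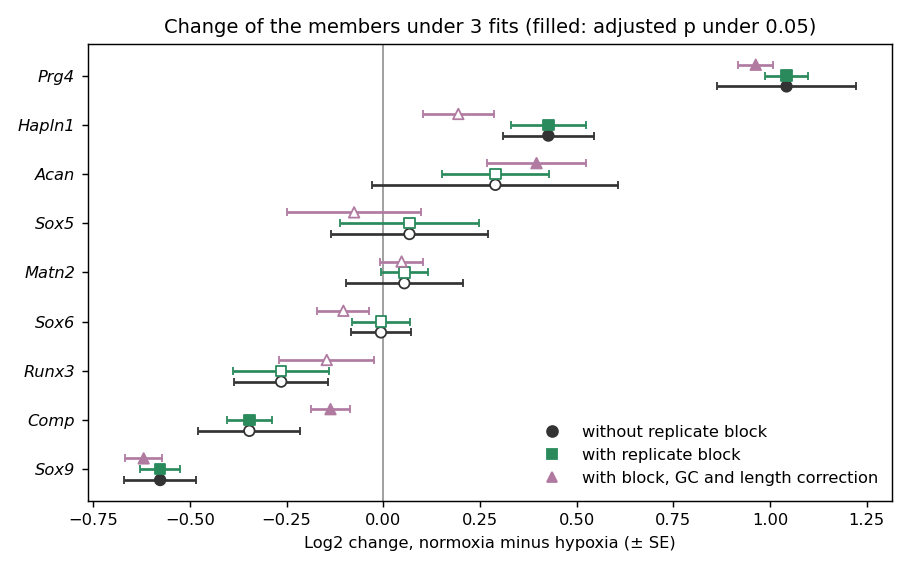
Log2 change in normoxia minus hypoxia (horizontal axis) with its SE for the 9 tested genes, without the replicate block, with it, and with it after correction for GC content and length. Prg4 and Sox9 are filled, meaning an adjusted p under 0.05, in all 3 fits, whereas Comp, Hapln1 and Acan change sides of the threshold between fits.

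Levels between members were compared per exon length, as counts per kilobase scaled to the same total in each sample. Comp stood highest, at 5184 ± 1113 (SD, n = 4) in hypoxia and 4415 ± 556 in normoxia, rank 18 of 24406 genes. Prg4 followed at 408 ± 111 and 911 ± 200, rank 224, and then Sox9 at 104 ± 13 and 76.2 ± 8.79. Matn2 came next at 34.2 ± 7.44 in hypoxia and 38.7 ± 6.98 in normoxia. Hapln1 at 6.85 ± 0.82 and Sox6 at 6.75 ± 0.32 in hypoxia could not be ordered beyond their spread, nor could Runx3 at 5.35 ± 0.31 and Acan at 4.69 ± 3.07. The hypoxia spread of Acan also reached Hapln1 and Sox6. In normoxia Hapln1, at 10.1 ± 1.09, lay above Sox6, at 7.37 ± 0.67, while Acan, at 5.63 ± 1.28, overlapped with Runx3, at 4.85 ± 0.49. Sox5, at 0.985 ± 0.17 in hypoxia, and Chad, at 0.634 ± 0.38, were lowest and overlapped in their spread. In normoxia they were at 1.15 ± 0.29 and 0.415 ± 0.22.

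**Figure D3:**
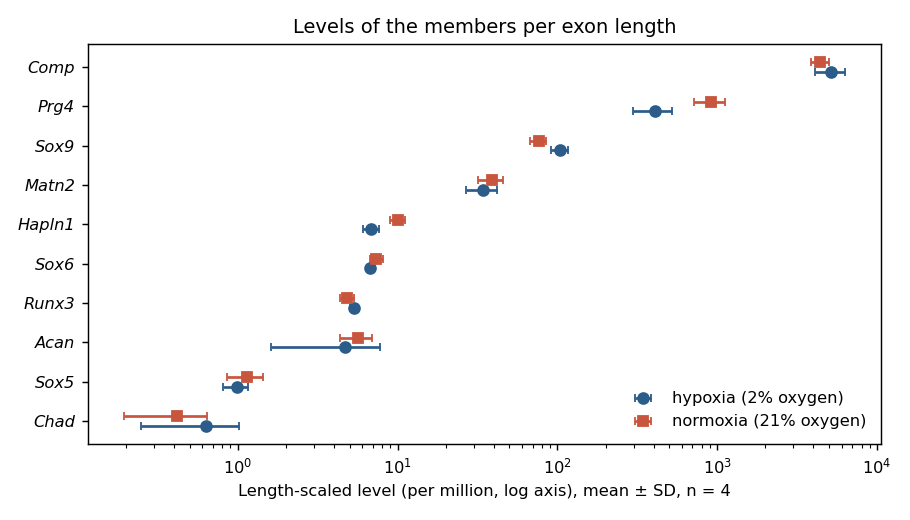
Length-scaled level of the 10 genes (horizontal log axis, counts per kilobase scaled to a fixed total), as mean ± SD of 4 samples at 2% and 21% oxygen. Comp is highest, at 5184 in hypoxia, and Chad lowest, at 0.634.

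The wider cartilage matrix was described from a list of 33 other genes, of which 26 were tested. Of these, 3 rose and 5 fell, beside 34.6% of all tested genes called in either direction. The median log2 change was -0.23 beside 0.0049 over all genes. With the replicate block, 4 rose and 14 fell, beside 46% of all genes. When GC content and length were also corrected for, 4 rose and 12 fell, beside 43.2%, and the median was -0.12. Col2a1, the type II collagen of cartilage, fell by 0.33 (limma-trend, adjusted p = 0.0229), from 771.5 to 991 CPM in hypoxia to 617.1 to 823.7 in normoxia. Corrected for GC content and length, its change was -0.13 (adjusted p = 0.423 in limma-trend, or 0.0172 with the block). Col11a2 fell by 1.01 ± 0.17 (adjusted p = 0.000921), and Cnmd, the antiangiogenic chondromodulin, by 0.98 ± 0.29 (adjusted p = 0.0215). Col10a1, the collagen of hypertrophic cartilage, moved the other way and rose by 1.68 ± 0.21 (adjusted p = 0.000173) from a low level. Of the 5 tested markers of hypertrophic chondrocytes, 1 rose, Col10a1, and 1 fell, beside 34.6% of all tested genes called. Their median log2 change was -0.35. Pth1r was at -0.95, Ibsp at -0.61, Panx3 at -0.35 and Mmp13 at 0.31, and Ihh had no counts. With the replicate block, 2 rose and 2 fell, beside 46%. Of 12 chondrocyte markers, among them Acan, 8 were tested, 3 fell and none rose, and Snorc had no counts. The 3 of 8 called stand beside 34.6% of all tested genes. With the replicate block, 5 fell and none rose, beside 46%. When GC content and length were also corrected for, 1 rose and 5 fell, beside 43.2%.

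Enzymes and transporters used to make chondroitin sulfate, as attached to Acan, related chains, and the hyaluronan Acan binds were split. Of 28 tested genes, 12 rose and 6 fell, beside 34.6% of all tested genes called, and the median log2 change was 0.09. With the replicate block, 12 rose and 6 fell as well, beside 46%. Has2, a hyaluronan synthase, rose by 1.05 ± 0.13 (limma-trend, adjusted p = 0.000163), Csgalnact1, which starts chondroitin chains, by 0.93 ± 0.092 (adjusted p = 6.39e-05), and Uxs1, which makes UDP-xylose, by 0.80 ± 0.086 (adjusted p = 9.85e-05). Chpf, a chondroitin polymerizing factor, fell by 0.42 ± 0.051 (adjusted p = 0.000152), or by 0.26 with the GC and length correction. Of 15 tested relatives of the members, 3 rose and 3 fell, beside 34.6% of all tested genes called. With the replicate block, 4 rose and 5 fell, beside 46%. Vcan, the proteoglycan related to Acan, rose by 1.13 ± 0.18 (adjusted p = 0.000695).

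Of 25 tested signals and receptors that act on chondrogenesis, 8 rose and 6 fell, beside 34.6% of all tested genes called. Their median was -0.09. In the blocked fit corrected for GC content and length, 6 rose and 9 fell, beside 43.2%, so the larger number of calls changed direction. Bmpr1b, a receptor for bone morphogenetic proteins, rose by 1.12 ± 0.22 (limma-trend, adjusted p = 0.00212), whereas Pth1r, the receptor for parathyroid hormone and its related peptide, fell by 0.95 ± 0.11 (adjusted p = 0.000128). Of 11 tested genes of matrix breakdown and its inhibitors, 5 rose and 1 fell, beside 34.6% of all tested genes called. Their median was 0.22. With the replicate block, 6 rose and 3 fell, beside 46%. Mmp3, a matrix protease, rose by 0.81 ± 0.17 (adjusted p = 0.00345), as did Timp3, a tissue inhibitor of metalloproteinases, by 0.36 ± 0.077 (adjusted p = 0.00361). Adamts9 fell by 0.54 ± 0.13 (adjusted p = 0.00701). Of the other tested ADAMTS genes, Adamts5 rose by 0.31 (adjusted p = 0.0141 in limma-trend, or 0.0844 with the GC and length correction). Adamts1, at 0.09, and Adamts4, at -0.36, were not called.

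**Figure D4:**
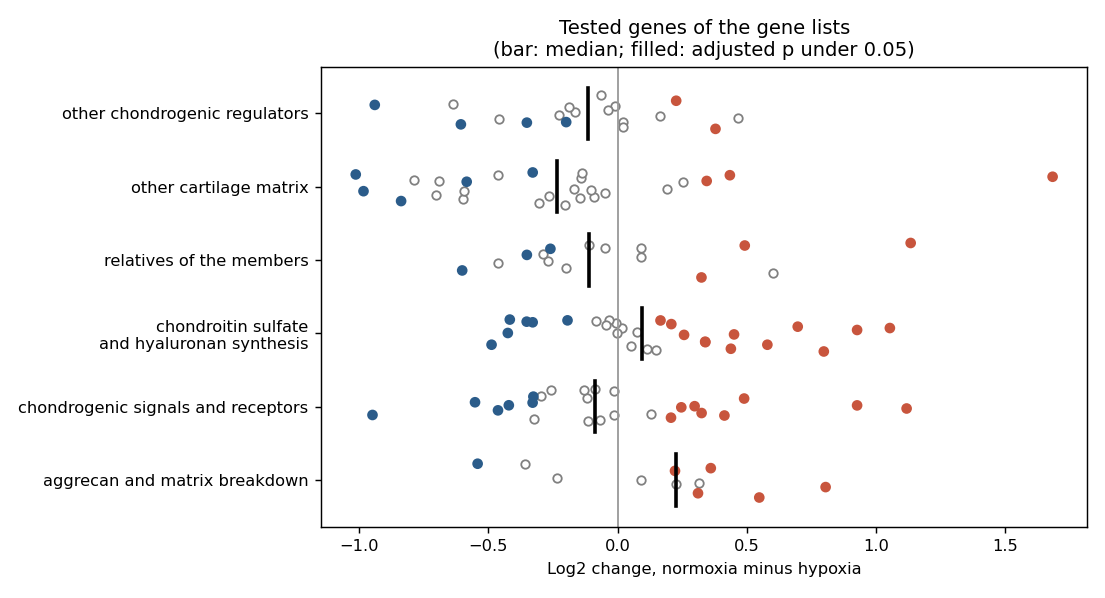
Log2 change in normoxia minus hypoxia (horizontal axis) for the tested genes of 6 lists, with a bar at each median and filled points for an adjusted p under 0.05. The median is -0.23 for other cartilage matrix and 0.22 for aggrecan and matrix breakdown, and every list has calls in both directions.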

How the data were processed

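Single-end reads from total RNA of 8 samples were aligned by the authors to mm10 with STAR, run through zUMIs, and assigned to Ensembl genes by featureCounts. Raw counts per gene were deposited. The deposited counts are whole numbers, not normalized, and the strand setting is not stated. Symbols, positions and exon lengths were taken from GENCODE M21 (GRCm38), which named 53360 of 53465 identifiers. Those without a symbol held 0.00364% of the counts.

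The filter followed the study and was filterByExpr of edgeR 4.0.16 (minimum count 5). TMM-scaled log2 CPM with a prior count of 3 were compared with limma-trend (limma 3.58.1, R 4.3.3), with Benjamini-Hochberg adjustment over all tested genes and a threshold of 0.05. Changes are normoxia minus hypoxia. Intervals use 6 residual degrees of freedom, fewer than the moderated test uses, and are wider for it. The prior count understates the change of low genes. Alternatives were the replicate block, a GC and length correction (splines, 5 degrees of freedom, available for 14353 tested genes), both together, the edgeR quasi-likelihood test, DESeq2 1.42.0, limma-voom, other scalings, filters and prior counts, and each sample left out.

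The study describes dividing a sorted population between conditions. Deviations from the group means correlated at 0.17 to 0.47 within the 4 same-numbered pairs and at most 0.076 otherwise, so the numbers were taken to pair the samples. Where nothing ties samples to separate animals, p-values measure the spread between these samples.

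The members and lists were chosen with earlier results of these data known. The genes named are the members, up to 3 highest and 3 lowest called genes of each list with a mean log2 CPM of at least 1, relatives of members, and defining markers. The other tested ADAMTS genes are named beside Adamts9. On simulated data for this comparison, limma-trend recovered 81.6% of 196 changed genes among 14220, and 8.57% of its calls were unchanged genes. Floors of 3 counts cover counting error only.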

Additional observations from a re-analysis of the deposited data

Results flagged for a closer look

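The total count of hypoxia replicate 1, 25132141, stood apart from those of the other 3 hypoxia samples, 12929564 to 13219647. Its gap was 0.976 of the range of the group. Of 28 groups of 4 values searched, 1.4 would be marked by chance, and this was the 1 found. This sample also had the highest Acan value of its group, as did normoxia replicate 1, at 13164251 counts. The part of depth in the Acan values was not tested.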

How the results depend on the processing

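Sox9 and Prg4 kept their direction and their side of the threshold in all 20 alternatives. The count of members called lower was 2 instead of 1 with the replicate block, also when corrected for GC content and length, in edgeR, DESeq2 and limma-voom, and the count ranged from 1 to 2 over the samples left out, being 2 without hypoxia replicate 1 and without normoxia replicate 2. The added member was Comp in each. Members called higher were 1 instead of 2 with the GC and length correction, and 1 to 3 over the samples left out, being 1 without normoxia replicate 4 and 3 without hypoxia replicate 1, where Acan was added. The block changed the call of Comp and no other member. Together with the GC and length correction it also added Acan, while the correction ended the call of Hapln1 with and without the block. All genes called lower fell from 2378 to 1575 when samples were scaled by library size only, which moved the median change to 0.089.

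Changes of members near 0 turned sign. Sox5 was -0.0754 with the GC and length correction, with and without the block, -0.0084 without hypoxia replicate 3 and -0.0802 without normoxia replicate 1, and ranged up to 0.2341 over the samples left out. Sox6 was 0.0818 with library size only, ranged from -0.0708 to 0.0189 over the samples left out, and was 0.016, 0.0023 and 0.0189 without hypoxia replicate 2, normoxia replicate 1 and normoxia replicate 2. Matn2 ranged from -0.0742 to 0.1724 and was -0.0742, -0.016 and -0.0075 without hypoxia replicate 1, normoxia replicate 2 and normoxia replicate 4. None of these passed the threshold. The difference in the ratio of Hapln1 to Acan ranged from -0.1854 without hypoxia replicate 1 to 0.3459 without hypoxia replicate 2. The difference in Sox5 to Sox9 ranged from 0.4459 without normoxia replicate 1 to 0.8293 without normoxia replicate 2, where the exact permutation p was 0.0286. With the replicate block, as differences within pairs, the difference in Sox6 to Sox9 was 0.57 with an exact sign-flip p of 0.125. The cause of these shifts was not tested. Comp has no value where the 20 most counted genes were left out, since it is one of them. Low counts limit Chad and Sox5.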
